A study of Homo sapiens with 4 samples.

Results

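REST, the repressor of neuronal genes outside neurons, and 9 genes for the proteins it works with were described in human HEK293 cells that had been induced to make a neural RNA-binding protein. The 10 genes were picked by name, from what their proteins are known to do and with earlier results of these data known. Found through their Ensembl identifiers, they were REST itself, the CoREST scaffolds RCOR1, RCOR2 and RCOR3 and the demethylase KDM1A. The set also held the PHD-finger proteins PHF21A and PHF21B, the deacetylases HDAC1 and HDAC2, and the SIN3A scaffold. The members are 10 of the 40188 genes that had a value. All 10 passed the filter on low values, a mean of at least 1 cRPKM over the libraries, PHF21B only through its levels with SRRM3 and SRRM4. In 9 of the 10 genes no library with a transgene differed from the empty vector by 2-fold. The exception was PHF21B, which stood at 17.13 cRPKM with SRRM3 and 10.80 cRPKM with SRRM4, against 0.55 cRPKM with the empty vector.

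REST binds a DNA element in the control regions of many neuronal genes and keeps them off in cells that are not neurons. It recruits chromatin enzymes at its 2 ends: SIN3A, with the deacetylases HDAC1 and HDAC2, and a CoREST scaffold, which joins the same deacetylases to the lysine demethylase LSD1, the product of KDM1A. PHF21A, also called BHC80, is a CoREST subunit that reads histone H3 with an unmodified tail, and PHF21B is its less studied paralog. SRRM4 is known to promote inclusion of a short exon in REST whose stop codon leaves a shortened protein without the C-terminal repression domain.

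HEK293 is a line derived from human embryonic kidney. Stable lines carried MSI1, SRRM3, SRRM4 or no gene in a vector that doxycycline switches on, and all 4 lines, the empty vector included, received 1 µg/mL of doxycycline for 24 h. MSI1 is a translational regulator that binds RNA, and SRRM3 and SRRM4 are related splicing activators of neural microexons; the title of the series places the work in the regulation of microexons of the retina. Each group was 1 library of stranded, polyA-selected RNA-seq, with 63003121 counts for MSI1, 62892722 for SRRM3, 60288244 for SRRM4 and 62083851 for the empty vector. The labels leave unsaid which promoter the vector has and whether a line was 1 clone or a pool.

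The induced gene was highest in its own library in each case: MSI1 at 62.43 cRPKM, against 8.19 to 10.56 cRPKM elsewhere, SRRM3 at 38.53, against 0.49 to 1.39 cRPKM, and SRRM4 at 63.78, against 0.01 to 0.39 cRPKM. Outside its own library SRRM3 was highest with SRRM4, at 1.39 cRPKM, against 0.61 with MSI1 and 0.49 with the empty vector. Of 8 genes typical of HEK293, 7 or 8 reached 1 cRPKM in each library. Of 7 markers of mature neurons, 2 did in each library, with a summed level of 5.49 cRPKM with MSI1, 5.79 with SRRM3, 5.77 with SRRM4 and 4.87 with the empty vector; DCX was at 0 in every library and RBFOX3 lay between 0.06 and 0.13 cRPKM. Markers of fibroblasts summed to between 3.63 and 4.62 cRPKM, of blood to between 0.29 and 0.56 cRPKM and of hepatocytes to between 0.04 and 0.11 cRPKM.

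Short exons of REST and of the PHF21 genes are shown because the values below are totals per gene and cannot tell whether an exon was included. Each was read from GENCODE 29 transcripts on GRCh38, in the direction of the gene, with the exon in capitals beside 30 bases of the neighbouring exons in the mature transcript; for REST the exon before it is shown.
REST, chr4:56927615-56927664, plus strand: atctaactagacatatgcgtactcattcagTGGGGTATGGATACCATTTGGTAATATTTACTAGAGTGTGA
PHF21A, chr11:45946076-45946098, minus strand: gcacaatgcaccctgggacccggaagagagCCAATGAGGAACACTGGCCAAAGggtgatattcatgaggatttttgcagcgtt
PHF21B, chr22:44889760-44889782, minus strand: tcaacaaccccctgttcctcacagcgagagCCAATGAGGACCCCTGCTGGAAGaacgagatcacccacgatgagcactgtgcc

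The REST exon is 50 bases long, and the 41 bases printed end at its in-frame stop codon; REST-205 has it, 1 of 6 protein-coding transcripts that span the position. The exons of the 2 PHF21 genes have 23 bases each and the same bases at 17 of the 23 positions. In PHF21A it is in 1 of 2 spanning transcripts, and in PHF21B in 4 of 4.

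All 10 genes were measured as cRPKM, which is corrected for a length assigned to each gene and for the size of a library. That length need not be the whole transcript, so levels of different genes can be set beside each other only roughly. A ratio between libraries is given below as the ratio of counts after division by the library totals, with its exact 95% interval. With 1 library in a group there is no replicate check: the interval covers counting error only, it sets 1 library against another, and a trait of a line cannot be told apart from an effect of its transgene. In bulk RNA, fewer cells that express a gene and less of its RNA in each cell cannot be told apart.

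**Figure D1:**
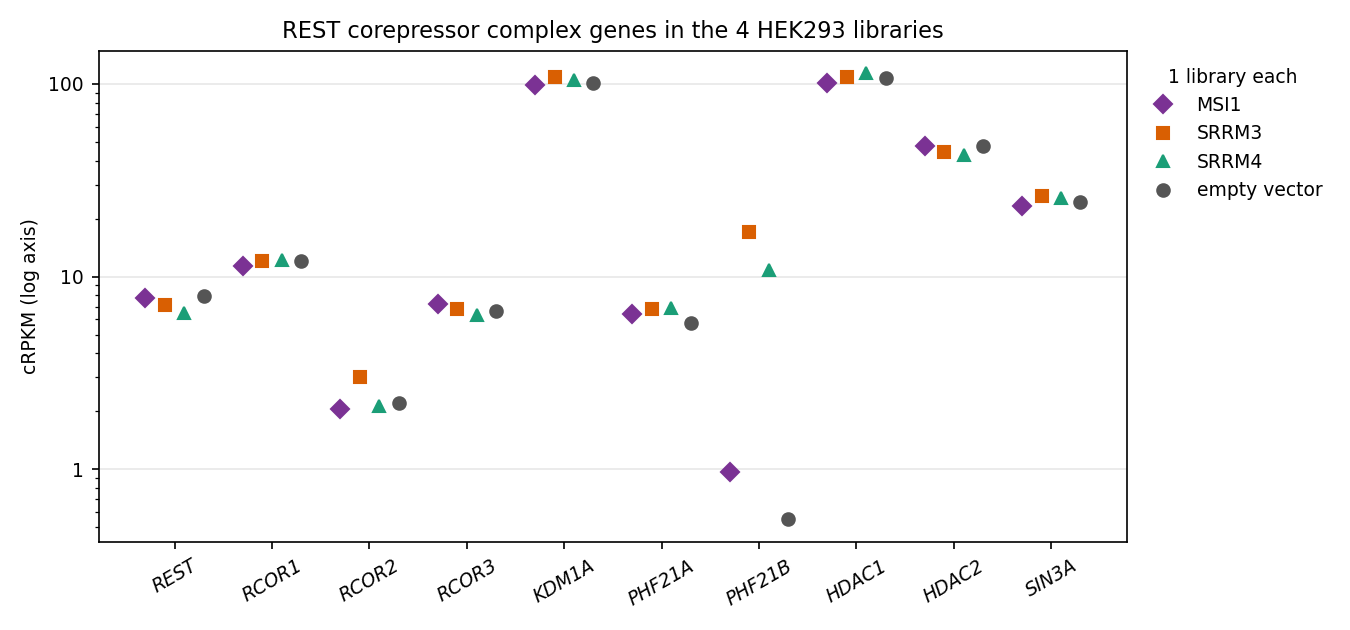
Level of each of the 10 genes in each library, in cRPKM on a log axis; points are single libraries (MSI1, SRRM3, SRRM4, empty vector) with no error bar, since each group has 1. The points of 9 genes lie close together, and those of PHF21B run from 0.55 to 17.13 cRPKM.

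The plot of levels shows which subunits were abundant. KDM1A and HDAC1 were the most abundant, between 98.82 and 113.93 cRPKM in every library. HDAC2 and SIN3A followed, and RCOR1, REST, RCOR3 and PHF21A lay between 5.76 and 12.18 cRPKM. RCOR2 was the lowest of the 10 with SRRM3 and SRRM4, and PHF21B with MSI1 and the empty vector.

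REST (ENSG00000084093, GRCh38 chromosome 4, 56907876 to 56966678, plus strand) was at 7.74 cRPKM with MSI1, 7.13 with SRRM3, 6.50 with SRRM4 and 7.93 with the empty vector, from 3484, 3207, 2800 and 3520 reads in the same order. The SRRM4 library was the lowest and the SRRM3 library the next, and the MSI1 library stood near the empty vector. The ratio to the empty vector was 0.819 with SRRM4 (0.779 to 0.861), 0.899 with SRRM3 (0.857 to 0.944) and 0.975 with MSI1, whose interval of 0.930 to 1.02 includes 1. SRRM4 was also below SRRM3, with a ratio of 0.911 (0.865 to 0.958). The distance between its highest and lowest library, 0.27 on the log2 scale, stood at percentile 57.4 of the 12706 genes that passed the filter. In the single comparisons with the empty vector, the log2 fold of REST stood at percentile 4.67 of all genes with SRRM4, 18.1 with SRRM3 and 38.7 with MSI1, so with SRRM4 it was among the lower folds. The gene NOA1 overlaps REST on the opposite strand and had 10.94 cRPKM with MSI1, 10.42 with SRRM3, 11.05 with SRRM4 and 10.33 with the empty vector; the sources used here do not say whether the counting used strand, so reads of the overlap could belong to either gene.

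The CoREST scaffolds carry the demethylase and the deacetylases to REST, and RCOR1 was the most abundant of the 3. RCOR1 (chromosome 14, 102592661 to 102730576) had 11.38 cRPKM with MSI1, 12.05 with SRRM3, 12.18 with SRRM4 and 12.08 with the empty vector. Only the MSI1 library stood below the others, at 0.942 of the empty vector (0.902 to 0.983), and the spread of RCOR1 over the libraries, at percentile 7.30, was the narrowest of the 10 genes. RCOR3 (chromosome 1, 211258377 to 211316385) had 7.24 cRPKM with MSI1, 6.77 with SRRM3, 6.31 with SRRM4 and 6.62 with the empty vector. Its highest library was MSI1, 1.09 of the empty vector (1.02 to 1.17), and its intervals for SRRM3 and SRRM4 against the empty vector include 1.

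RCOR2 (chromosome 11, 63911221 to 63916844, minus strand), the scaffold best known from neural and stem cells, had 2.05 cRPKM with MSI1, 3.01 with SRRM3, 2.12 with SRRM4 and 2.21 with the empty vector, from 330, 483, 326 and 351 reads. The SRRM3 library stood apart from the other three, which did not differ beyond counting error. Its ratio to the empty vector was 1.36 (1.18 to 1.56) and to MSI1 1.47 (1.27 to 1.69), and SRRM4 over SRRM3 was 0.704 (0.610 to 0.812). After PHF21B this was the widest spread among the 10 genes, at percentile 85.9 of all genes, and at percentile 71.1 of the 3178 genes of like level. The scaffolds together stayed between 20.61 and 21.83 cRPKM in every library. RCOR2 made up 9.92% of that sum with MSI1, 13.8% with SRRM3, 10.3% with SRRM4 and 10.6% with the empty vector, and RCOR1 between 55.1% and 59.1%.

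KDM1A (chromosome 1, 23019443 to 23083689, plus strand), which removes methyl groups from histone H3 as LSD1, had 98.82 cRPKM with MSI1, 108.29 with SRRM3, 105.47 with SRRM4 and 101.47 with the empty vector. At 18579 to 20323 reads counting error is small, and every pair of libraries differed beyond it. With totals scaled by TMM factors, SRRM4 over SRRM3 was 0.985 (0.965 to 1.004), an interval that includes 1. Over the empty vector the ratio was 0.974 with MSI1 (0.954 to 0.994), 1.07 with SRRM3 (1.05 to 1.09) and 1.04 with SRRM4 (1.02 to 1.06). The whole range was 0.13 on the log2 scale, at percentile 16.3 of all genes, so most genes varied more between these libraries than KDM1A did. An antisense transcript within KDM1A, AL031428.1, had 4.66 cRPKM with MSI1, 4.59 with SRRM3, 4.81 with SRRM4 and 4.83 with the empty vector.

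PHF21B (ENSG00000056487, chromosome 22, 44881162 to 45009999, minus strand) differed far more than the others. It had 0.97 cRPKM with MSI1, 17.13 with SRRM3, 10.80 with SRRM4 and 0.55 with the empty vector, from 221, 3903, 2358 and 123 reads. Both SRRM libraries were far above the others, with SRRM3 the higher, and all 4 levels differed from each other beyond counting error. SRRM3 was 31.3-fold the empty vector (26.2 to 37.8) and 17.7-fold MSI1 (15.4 to 20.4). SRRM4 was 19.7-fold the empty vector (16.5 to 23.9) and 11.2-fold MSI1 (9.71 to 12.9). MSI1 was itself 1.77-fold the empty vector (1.41 to 2.23), and SRRM4 over SRRM3 was 0.630 (0.599 to 0.663). The log2 difference between highest and lowest library was 4.07 with a pseudocount of 0.5 cRPKM, 4.73 with 0.1 and 2.91 with 2, and 4.65 on CPM scaled by TMM factors. The value of 4.07 stood at percentile 99.9 of all genes and of the 4609 genes of like mean level. PHF21B passed the filter, and got its mean level, through the SRRM3 and SRRM4 libraries, where it is high. These percentiles are therefore no independent measure of its spread. A transcript in an intron of PHF21B on the same strand, AL079301.1, reached at most 0.14 cRPKM.

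Its paralog PHF21A (ENSG00000135365, chromosome 11, 45929323 to 46121178, minus strand) had 6.42 cRPKM with MSI1, 6.81 with SRRM3, 6.87 with SRRM4 and 5.76 with the empty vector, from 1466, 1553, 1501 and 1297 reads. The 3 libraries with a transgene lay above the empty vector and did not differ from each other beyond counting error. The ratios were 1.11 with MSI1 (1.03 to 1.20), 1.18 with SRRM3 (1.10 to 1.27) and 1.19 with SRRM4 (1.11 to 1.28). The difference of PHF21A with SRRM3 or SRRM4 had the direction of that of PHF21B and was much smaller.

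Because the lengths used for the paralogs were nearly equal, 3622 bases for PHF21B and 3625 for PHF21A, their ratio is almost the same in cRPKM and in reads. PHF21B over PHF21A was 0.151 with MSI1 (0.130 to 0.174), 2.52 with SRRM3 (2.37 to 2.67), 1.57 with SRRM4 (1.47 to 1.68) and 0.0955 with the empty vector (0.0782 to 0.114). PHF21A was thus the more abundant paralog in the MSI1 and empty vector libraries and PHF21B in the SRRM libraries. The sum of the pair was 7.39 cRPKM with MSI1, 23.94 with SRRM3, 17.67 with SRRM4 and 6.31 with the empty vector. PHF21B held 13.1% of it with MSI1, 71.6% with SRRM3, 61.1% with SRRM4 and 8.72% with the empty vector.

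**Figure D2:**
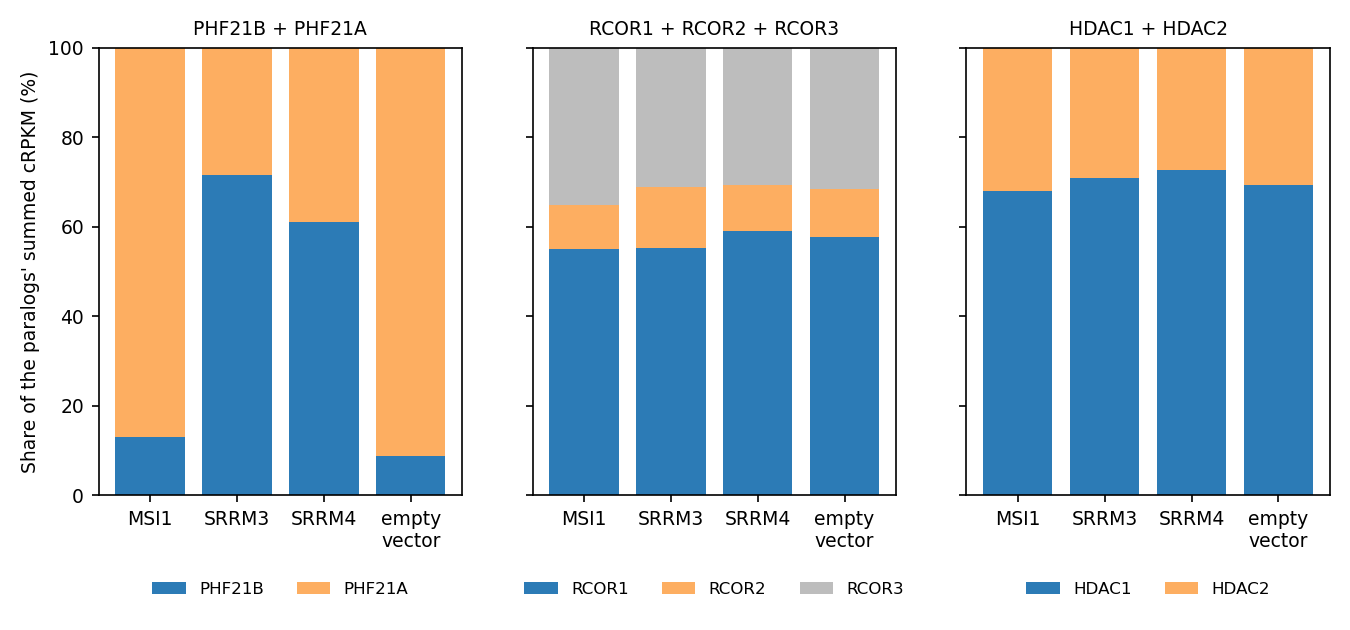
Share of the summed cRPKM held by each paralog, in percent from 0 to 100, for the PHF21, RCOR and HDAC genes; each bar is 1 library, in the order MSI1, SRRM3, SRRM4, empty vector. PHF21B takes 71.6% with SRRM3 and 61.1% with SRRM4, against 8.72% with the empty vector, while the RCOR and HDAC shares differ by a few percentage points.

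The deacetylases remove acetyl groups from histones in both the CoREST and the SIN3 complex. HDAC1 (chromosome 1, 32292086 to 32333635) had 101.43 cRPKM with MSI1, 108.37 with SRRM3, 113.93 with SRRM4 and 106.91 with the empty vector. HDAC2 (chromosome 6, 113933028 to 114011308, minus strand) had 47.56 cRPKM with MSI1, 44.29 with SRRM3, 42.92 with SRRM4 and 47.44 with the empty vector. With SRRM4 the paralogs stood on opposite sides of the empty vector, HDAC1 at 1.07 (1.04 to 1.09) and HDAC2 at 0.905 (0.889 to 0.920). With SRRM3, HDAC2 was at 0.933 (0.918 to 0.949) and the interval of HDAC1 includes 1, and with MSI1, HDAC1 was at 0.949 (0.926 to 0.972) and the interval of HDAC2 includes 1; with totals scaled by TMM factors, HDAC2 with MSI1 was at 0.981 (0.965 to 0.997). HDAC2 over HDAC1 in cRPKM was 0.469 with MSI1, 0.409 with SRRM3, 0.377 with SRRM4 and 0.444 with the empty vector. HDAC2 had the more reads, 24885 to 28811 against 13260 to 14253 for HDAC1, and the lower level per length, over 9616 bases for HDAC2 and 2075 for HDAC1. GENCODE lists 2 pseudogenes of HDAC1, HDAC1P1 and HDAC1P2, which were not analysed here and could share its reads.

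SIN3A (chromosome 15, 75369379 to 75455842, minus strand), the scaffold that binds the other end of REST, had 23.26 cRPKM with MSI1, 26.32 with SRRM3, 25.62 with SRRM4 and 24.45 with the empty vector. The order was that of KDM1A: SRRM3 highest, SRRM4 next, MSI1 lowest. The ratio to the empty vector was 0.951 with MSI1 (0.925 to 0.978), 1.08 with SRRM3 (1.05 to 1.11) and 1.05 with SRRM4 (1.02 to 1.08). A long noncoding gene on the opposite strand of SIN3A, AC068338.2, had 4.55 cRPKM with MSI1, 4.65 with SRRM3, 3.98 with SRRM4 and 4.16 with the empty vector.

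**Figure D3:**
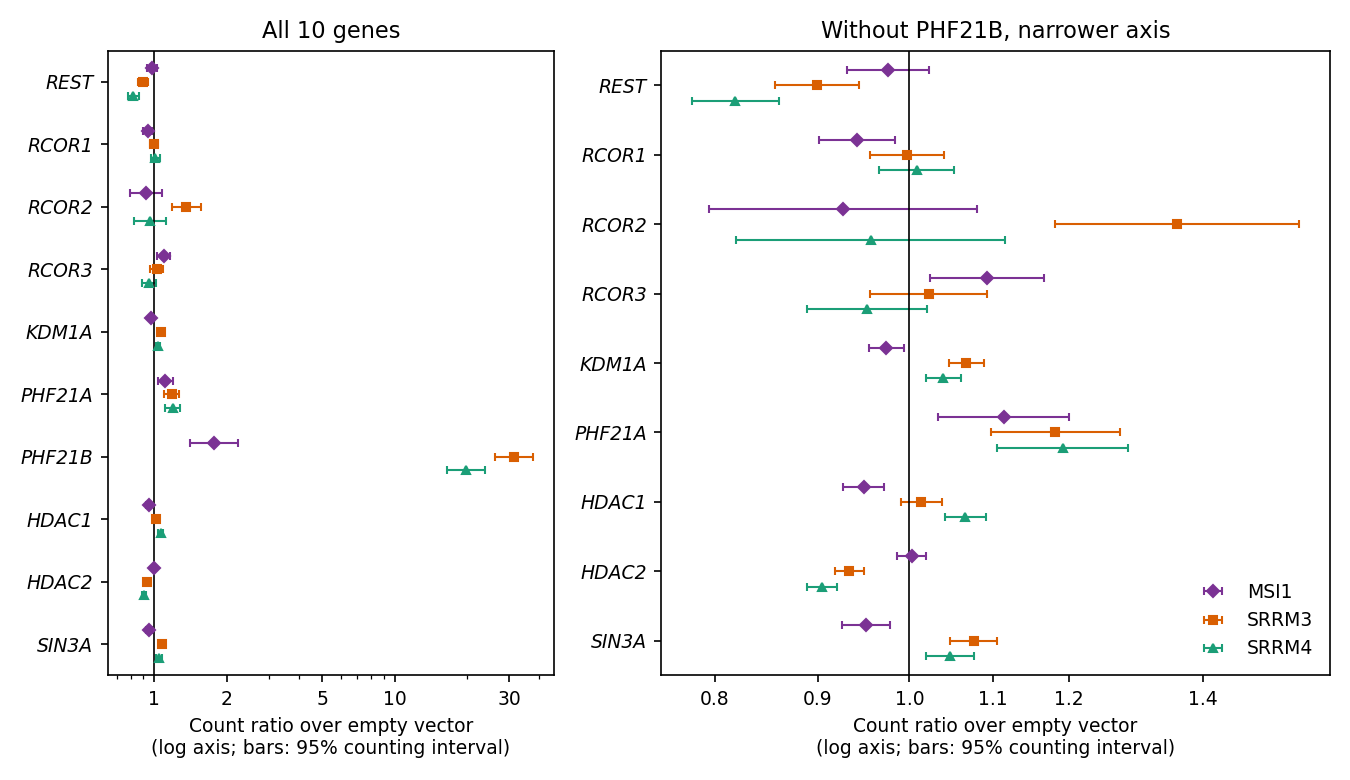
Ratio of depth-scaled counts of each gene to the empty vector, on a log axis, for MSI1, SRRM3 and SRRM4; points are single libraries and bars the exact 95% counting intervals, with all 10 genes on the left and, on a narrower axis, the 9 without PHF21B on the right. Of the 10, only PHF21B lies past 2, at 31.3 with SRRM3 and 19.7 with SRRM4; REST lies below 1 with both, at 0.899 with SRRM3 and 0.819 with SRRM4.

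Counted together, the number of the 10 genes that differed by 2-fold from the empty vector, on the log2 scale of cRPKM + 0.5, was 0 with MSI1, where 0.669% of all genes did, 1 with SRRM3, where 0.882% did, and 1 with SRRM4, where 0.771% did. The 1 gene was PHF21B in both, which passed the filter only through its levels with SRRM3 and SRRM4, so that its place in these counts is no independent result. Between SRRM4 and SRRM3 none of the 10 differed by that much, against 0.512% of all genes. At this depth the counting interval excluded 1 for 7 of the 10 genes with MSI1, 7 with SRRM3 and 7 with SRRM4, set against 59.9% of all genes with MSI1, 57.7% with SRRM3 and 48.2% with SRRM4. It did for 8 of 10 between SRRM4 and SRRM3, set against 57.6%. An interval that excludes 1 is therefore common here, and the counts for the 10 genes are not far from those of all genes. The 3 comparisons with the empty vector share that library.

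The median log2 difference of the 10 genes was -0.035 with MSI1, where that of all genes was 0.016, then 0.062 with SRRM3, where it was 0.0029, and 0.033 with SRRM4, where it was -0.0035. Without PHF21B the medians of the other 9 genes were -0.038 with MSI1, 0.030 with SRRM3 and 0.011 with SRRM4. Directions were mixed within the complex: by the interval 3 genes were higher and 4 lower with MSI1, where 32.3% of all genes were higher and 27.6% lower. SRRM3 had 5 higher and 2 lower, where 29.6% of all genes were higher and 28.1% lower. The same counts of 5 and 2 stood with SRRM4, where 23.2% were higher and 25.1% lower. REST and HDAC2 were the 2 lower genes in both. Between SRRM4 and SRRM3, HDAC1 was higher and 7 genes were lower, where 27.1% of all genes were higher and 30.5% lower; for RCOR3, KDM1A and SIN3A among these the interval includes 1 when the totals are scaled by TMM factors.

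**Figure D4:**
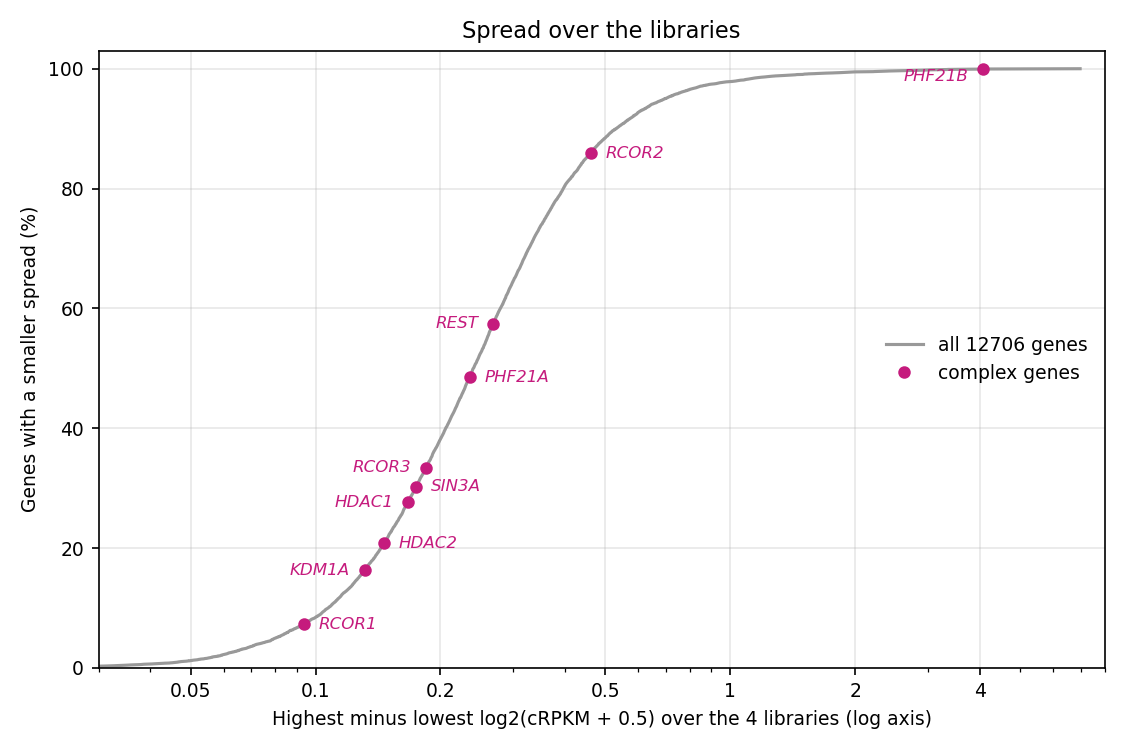
Percent of the 12706 genes that passed the filter with a smaller spread, against the spread, the log2 distance between the highest and the lowest of the 4 libraries on a log axis; marked points are the 10 genes. RCOR1 sits at percentile 7.30, REST at 57.4, RCOR2 at 85.9 and PHF21B at 99.9. PHF21B passed the filter only through its levels with SRRM3 and SRRM4, so its percentile is no independent measure of its spread.

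Genes with a profile like that of PHF21B were sought over the 4 libraries, by the Euclidean distance between centred log2 values of 12640 genes found in a table of gene names, which gives some genes by their Ensembl ID alone. The nearest were CPLX2, which encodes complexin, a regulator of vesicle fusion, at a distance of 0.386, and CHGA, which encodes the granule protein chromogranin A, at 0.395. CPLX2 had 0.11 cRPKM with MSI1, 9.54 with SRRM3, 5.48 with SRRM4 and 0.11 with the empty vector. CHGA had 1.39 cRPKM with MSI1, 20.81 with SRRM3, 9.70 with SRRM4 and 0.76 with the empty vector. Both were highest with SRRM3 and second with SRRM4, as PHF21B was, which follows from their being picked by profile. SCG3 followed at 0.782, CHGB at 0.831, ACTL6B at 0.979 and PCSK1 at 1.07: a secretory granule protein, chromogranin B, a subunit of the neuronal BAF complex and a prohormone convertase. The small nucleolar RNA SNORD36C at 0.404 and the noncoding gene ENSG00000254539 at 0.953 complete the 8, but they rest on at most 7 reads and 3 reads in a library.

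The genes nearest to REST lay much closer to it, at a spread between libraries that many genes share. IPO8, an importin, had 26.40 cRPKM with MSI1, 24.28 with SRRM3, 22.62 with SRRM4 and 26.95 with the empty vector, at a distance of 0.0186 from REST. The noncoding gene ENSG00000255455 at 0.0232, the proton pump subunit ATP6V1A at 0.0288, SIKE1 at 0.0294 and the matrix protein ECM1 at 0.0297 were next. Each of the 5 was lowest with SRRM4 and second lowest with SRRM3, which follows from their being picked for a profile like that of REST.

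**Figure D5:**
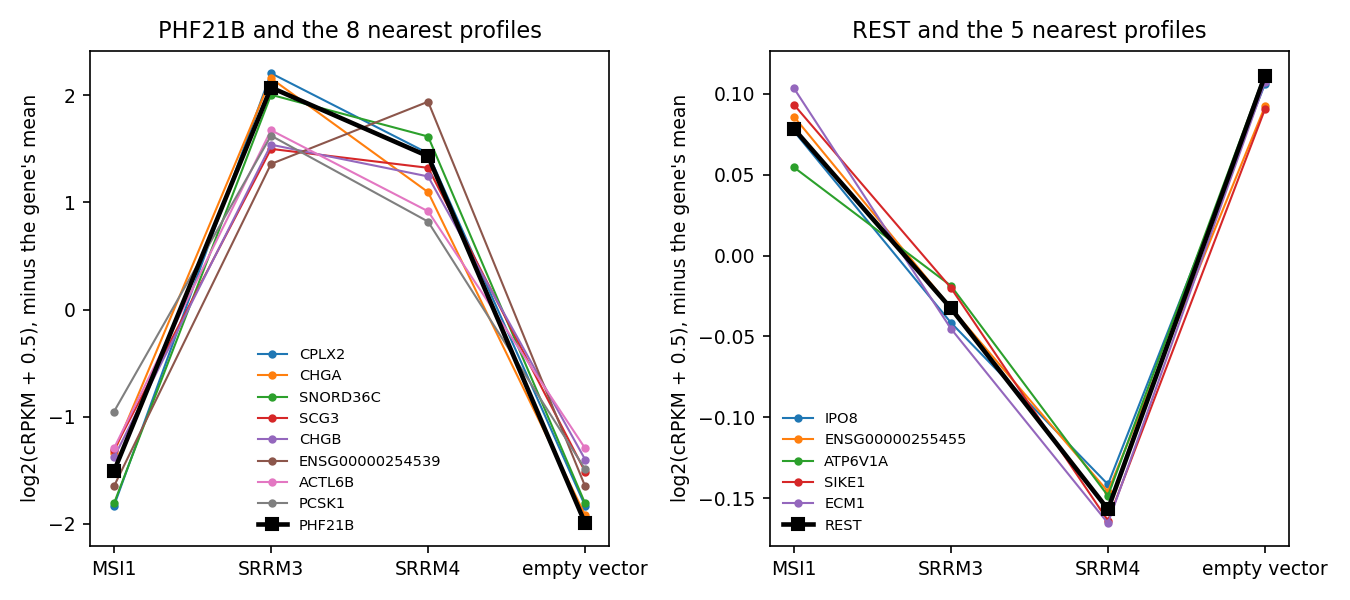
Profiles of log2(cRPKM + 0.5), each centred on its own mean, over MSI1, SRRM3, SRRM4 and empty vector libraries, for PHF21B with its 8 nearest genes and for REST with its 5 nearest genes. PHF21B and its neighbours are high with SRRM3 and SRRM4, and REST and its neighbours are lowest with SRRM4; the neighbours were picked for this likeness.

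Other genes of the same machinery were taken from lists of known subunits, chosen with earlier results of these data known. Of 15 further CoREST and REST partners, 15 passed the filter and 0 differed by 2-fold from the empty vector with MSI1, SRRM3 or SRRM4. Over all genes 0.669% did with MSI1, 0.882% with SRRM3 and 0.771% with SRRM4. By the interval 11 of the 15 were higher and 0 lower with SRRM3, set against 29.6% higher and 28.1% lower over all genes. SRRM4 had 4 higher and 2 lower, set against 23.2% and 25.1%, and MSI1 had 6 higher and 2 lower, set against 32.3% and 27.6%. The median log2 difference was 0.11 with SRRM3, against 0.0029 over all genes. HMG20B, a DNA-binding CoREST subunit, was at 30.89 cRPKM with MSI1, 32.14 with SRRM3, 32.33 with SRRM4 and 27.83 with the empty vector, a ratio of 1.11 with MSI1, 1.15 with SRRM3 and 1.16 with SRRM4. The histone methyltransferase EHMT2 stood at 1.11 of the empty vector with SRRM3 (1.08 to 1.15) and 1.12 with SRRM4 (1.09 to 1.16). SMARCA4, a remodelling ATPase, was at 1.08 with SRRM3 (1.06 to 1.10) and 1.12 with SRRM4 (1.10 to 1.14). CTBP1, a corepressor, was at 1.12 with SRRM3 (1.08 to 1.17) and 1.06 with SRRM4 (1.02 to 1.10).

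Of 19 subunits of the SIN3 complex all 19 passed the filter, and 0 differed by 2-fold from the empty vector in any comparison. The share over all genes was 0.669% to 0.882%. By the interval 5 were higher and 5 lower with MSI1, where 32.3% of all genes were higher and 27.6% lower. SRRM3 had 9 higher and 7 lower, set against 29.6% and 28.1%, and SRRM4 had 5 higher and 6 lower, near the 23.2% and 25.1% of all genes. BRMS1, a SIN3 subunit, differed most between the SRRM libraries: it had 43.13 cRPKM with MSI1, 33.33 with SRRM3, 52.21 with SRRM4 and 46.71 with the empty vector. It was lowest with SRRM3, at 0.714 of the empty vector (0.680 to 0.748), and highest with SRRM4, at 1.12 (1.07 to 1.17), and SRRM4 over SRRM3 was 1.57 (1.49 to 1.64). PHF12, another PHD-finger protein, was at 1.20 with SRRM3 (1.15 to 1.25) and 1.08 with SRRM4 (1.04 to 1.13). SAP30L was at 0.926 with SRRM3 (0.879 to 0.976) and 0.828 with SRRM4 (0.784 to 0.874), and SINHCAF at 0.875 with SRRM3 (0.850 to 0.901) and 0.913 with SRRM4 (0.886 to 0.940).

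HDAC1 and HDAC2 also serve the NuRD complex, of which 9 of 10 further subunits passed the filter. Of these 0 differed by 2-fold from the empty vector, where 0.669% to 0.882% of all genes did. By the interval 2 were higher and 4 lower with MSI1, set against 32.3% and 27.6% of all genes. SRRM3 had 4 higher and 2 lower, set against 29.6% and 28.1%. SRRM4 had 6 higher and 1 lower, set against 23.2% and 25.1%. CHD3, a NuRD remodeller, had 29.27 cRPKM with MSI1, 39.98 with SRRM3, 34.15 with SRRM4 and 32.95 with the empty vector, highest with SRRM3 at 1.21 of the empty vector (1.19 to 1.24). CHD5, its neuronal relative, was the 1 below the filter, at 0.36 cRPKM with MSI1, 0.15 with SRRM3, 0.13 with SRRM4 and 0.07 with the empty vector. MBD3, another NuRD subunit, stood at 1.10 of the empty vector with SRRM3 (1.07 to 1.12) and 1.11 with SRRM4 (1.09 to 1.14). Of 6 other paralogs of the complex genes 6 passed and 0 differed by 2-fold, against the same shares of all genes. KDM1B, the paralog of KDM1A, had 15.50 cRPKM with MSI1, 14.32 with SRRM3, 13.78 with SRRM4 and 14.90 with the empty vector.

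The REST protein is known to be controlled by its degradation and by phosphatases and deubiquitinases that protect it, which RNA levels do not show. Of 9 genes of that turnover all 9 passed the filter and 0 differed by 2-fold from the empty vector, where 0.669% to 0.882% of all genes did. By the interval 2 were higher and 4 lower with MSI1, set against 32.3% and 27.6% of all genes. The same counts stood with SRRM3, set against 29.6% and 28.1%. SRRM4 had 5 higher and 2 lower, set against 23.2% and 25.1%. CTDSP1, a phosphatase that acts on REST, had 16.43 cRPKM with MSI1, 21.00 with SRRM3, 19.48 with SRRM4 and 17.25 with the empty vector, so that both SRRM libraries were above it, at 1.22 with SRRM3 (1.16 to 1.28) and 1.13 with SRRM4 (1.07 to 1.19). USP15, a deubiquitinase of REST, had 4.05 cRPKM with MSI1, 3.89 with SRRM3, 4.80 with SRRM4 and 4.22 with the empty vector, and stood on opposite sides of the empty vector in the SRRM libraries, at 0.922 with SRRM3 (0.881 to 0.965) and 1.14 with SRRM4 (1.09 to 1.19).

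A list of 36 genes known to be repressed by REST, also chosen with earlier results known, holds SRRM3 and SRRM4 themselves, and 34 were left without these. Taken without the filter on the mean, 19 of the 34 were higher by 2-fold with SRRM3, where 0.666% of all genes were, 16 with SRRM4, where 0.596% were, and 0 with MSI1, where 0.487% were. All genes in this paragraph are the 25666 above 0 cRPKM in at least 1 library, without the induced gene. By the interval 27 of the 34 were higher with SRRM3, 25 with SRRM4 and 11 with MSI1, set against 17.2%, 13% and 19.1% of all genes, and 3 of the 34 had at most 3 reads in every library. The interval includes 1 for 6 of the 34 with SRRM3, where 1 more was lower, and for 9 with SRRM4, where 0 were lower. REST was at 0.899 of the empty vector with SRRM3 and 0.819 with SRRM4; with 1 library each, no relation between REST and the list was tested. CPLX2, CHGA, SCG3, CHGB, ACTL6B and PCSK1, the 6 protein-coding neighbours of PHF21B, are all on this list, and PHF21B is not. The neighbours were picked from these same libraries and the list with earlier results known, so the overlap is no independent support. A link of PHF21B to REST was not tested.

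The DNA element was sought in promoters as AGCACCNNGGACAG on either strand, in RefSeq windows on GRCh38.p14 from 250 bases before to 50 after each start. It was found for 18 of 27305 genes, or 0.0659%, for 0 of the 8 complex genes with an entry, RCOR2 and PHF21B not being among them, and for 2 of 26 genes of the REST list, SYN1 and GRIA2. The SYN1 match is shown as an example of the element REST binds, with the searched letters in capitals; SYN1, which encodes a synaptic vesicle protein, had 0.36 cRPKM with MSI1, 2.28 with SRRM3, 1.81 with SRRM4 and 0.21 with the empty vector.
SYN1, chrX:47620054-47620107, minus strand: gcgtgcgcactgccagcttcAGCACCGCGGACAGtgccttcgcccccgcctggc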

How the data were processed

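The authors deposited, for each library, a table of cRPKM, a corrected RPKM with 2 decimals, and of read counts per Ensembl gene. Per the submitters' processing notes the genome was GRCh38 (hg38). The sources used here do not name an aligner, a counter or an annotation release, nor say if strand was used. Over 3548 well-covered genes the deposited RPKM matched the count over library total and a length fixed for each gene to within 0.0470%. Of 41614 listed genes, 40188 had values and 39633 of these an entry in a table of gene names, for some genes the Ensembl ID alone; coordinates are from GENCODE 29.

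Folds are log2 ratios of cRPKM after adding 0.5, on the 12706 genes with a mean of at least 1 cRPKM; the pseudocount understates differences of low genes. The 2-fold rule is a rule of size, not a test, and leaves out the induced gene of the comparison. Ratios of counts divided by library totals have exact conditional Clopper-Pearson 95% intervals. Reads are not independent molecules. The ratio of a pair of paralogs takes no pseudocount. The procedure was tested on simulated counts that held counting error alone, so the test says nothing about variation between lines or cultures.

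The 10 genes and all lists were chosen with earlier results of these data known. Named genes were the 10, the 8 nearest to PHF21B and 5 nearest to REST in profile, and up to 4 genes per list with the largest mean absolute fold over SRRM3 and SRRM4; CHD5 and SYN1 were added after their values were seen. Alternatives changed the pseudocount, filter, scaling (TMM factors), fold rule and control library. TMM factors came from edgeR 4.0.16 under R 4.3.3, and all else from Python 3.11.15 with scipy 1.17.1, numpy 2.4.6, pandas 2.3.3 and matplotlib 3.10.9.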

Additional observations from a re-analysis of the deposited data

Results flagged for a closer look

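KDM1A, HDAC1 and SIN3A were listed because MSI1 stood below the empty vector beyond counting error and an SRRM library above it; the difference between these effects was not tested. Set directly beside the MSI1 library, KDM1A was 1.10-fold with SRRM3 and 1.07-fold with SRRM4. HDAC1 was 1.12-fold MSI1 with SRRM4. SIN3A was 1.13-fold MSI1 with SRRM3 and 1.10-fold with SRRM4.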

How the results depend on the processing

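By the 2-fold rule, the count of complex genes that differed from the empty vector stayed at 0 with MSI1, 1 with SRRM3 and 1 with SRRM4 under pseudocounts of 0.1 and 2, no filter, a filter of 5 cRPKM, centring, TMM factors and a 1.5-fold rule, and with MSI1 as the control library for the SRRM libraries. Each setting was changed alone, so the 1.5-fold rule kept the pseudocount of 0.5, which put PHF21B with MSI1 at a log2 fold of 0.49. Its count ratio to the empty vector was 1.77, past 1.5-fold, and its log2 fold was 0.72 with a pseudocount of 0.1. The count of 0 with MSI1 under that rule therefore depends on the pseudocount. Between SRRM4 and SRRM3 the 1.5-fold rule gave 1 gene, PHF21B, in place of 0. Counting every gene whose interval excludes 1 at any fold gave 7 with MSI1, 7 with SRRM3, 7 with SRRM4 and 8 between SRRM4 and SRRM3. With totals scaled by TMM factors, chosen after seeing the data, these were 8 (HDAC2 added), 7, 7 and 5. Scaling moved the median of all genes by at most 0.029 on the log2 scale.

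Adding 0.5 cRPKM to both paralogs turned the log2 ratio of PHF21B to PHF21A to -2.23 with MSI1, in place of -2.73, and to -2.58 with the empty vector, in place of -3.39. The log2 fold of PHF21B with SRRM4 was 3.43, and 4.07 with a pseudocount of 0.1 and 2.33 with 2. With MSI1 as the control library 14 of the 20 log2 folds of complex genes moved beyond counting error. These were the same 7 genes with SRRM3 and with SRRM4, those whose interval for MSI1 against the empty vector excludes 1. The change of control shifts both folds of a gene by its own MSI1 fold, so the 14 are not separate results. No fold whose interval against the empty vector excludes 1 changed sign; of those that include 1, RCOR1 became 0.079 and RCOR3 -0.090 with SRRM3, both beyond counting error, and RCOR2 0.039 with SRRM4. The log2 fold of CUL1 became 0.011 with SRRM3. With SRRM4 those of GATAD2B became -0.065, MIER2 -0.034, MIER3 0.0089 and SKP1 0.0040. Each has the opposite sign to that against the empty vector. In each, MSI1 lay on the same side of the empty vector and further from it, so the change of control gives this sign. Intervals for these new folds are not given here. No paired analysis was possible because each group has 1 library and no library could be left out. RCOR2, at 326 to 483 reads, and PHF21B with MSI1 and the empty vector, at 221 and 123 reads, have the widest counting intervals.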
